A study of Sus scrofa with 4 samples.

Results

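The miR-26 and miR-29 families were followed through small RNA sequencing of hippocampal tissue from newborn piglets of the Rongchang breed, which comes from China. Members were chosen by name: every annotated pig miRNA numbered 26 or 29, and every conserved sequence filed under the families mir-26 or mir-29. This gave 4 members (miR-26a, miR-29a, miR-29b and miR-29c) of 321 annotated miRNAs, and 72 of 2791 conserved sequences, 18 of mir-26 and 54 of mir-29. The 8 piglets were littermates of both sexes, carry the genotype label "wide type", and fall into 2 groups of 4 with equal sex ratio. One group was given 200 mg of iron dextran, a complex of iron and sugar, by muscle injection on days 3 and 4 of life to induce oxidative stress. The control piglets are labelled as injected with nothing, so they had no vehicle injection by the labels. Ventral and dorsal hippocampus were taken apart and, as a brief protocol text reads, mixed within each treatment. There is therefore 1 pooled library for each region and treatment, 4 in all, and how many piglets entered a pool is not stated. No group has a replicate, so every interval given here covers counting error only and a ratio compares libraries, not conditions.

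miRNAs are short RNAs that guide Argonaute proteins to messenger RNAs, chiefly by pairing of the seed near their 5′ end, and lower the output of those messengers. miR-26 and miR-29 are known as abundant in glia, above all in astrocytes, and the miR-29 family rises as the brain matures. miR-29 is best known for targeting collagens and DNA methyltransferases. miR-26 is encoded within genes of the CTDSP phosphatases, which help to keep neuronal genes silent outside neurons. These libraries are of whole tissue, so which cells supplied the reads was not measured, and fewer cells of a type and less RNA per cell cannot be told apart. Enrichment in glia is therefore background and not a result.

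The sequences printed first show what separates the members. They come from the conserved table, with bases 2 to 8 (the seed) in capitals. Row names keep the code of 1 species, such as hsa for human, bta for cattle and mmu for mouse, and the rows hsa-miR-26a-5p, bta-miR-29a, hsa-miR-29b-3p and mmu-miR-29c-3p list the pig among their species.
hsa-miR-26a-5p: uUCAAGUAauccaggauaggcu
bta-miR-26b: uUCAAGUAauucaggauagguu
bta-miR-29a: cUAGCACCaucugaaaucgguua
hsa-miR-29a-3p: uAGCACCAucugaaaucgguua
hsa-miR-29b-3p: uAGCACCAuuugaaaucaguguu
mmu-miR-29c-3p: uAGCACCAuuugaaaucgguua
The 26a and 26b rows share the seed UCAAGUA and differ by C11U and C21U, with positions counted from 1 at the 5′ end and the 26a base first. The miR-29 rows that start with U share the seed AGCACCA. From hsa-miR-29a-3p to mmu-miR-29c-3p there is the single change C10U, and from mmu-miR-29c-3p to hsa-miR-29b-3p there are G18A, U21G and A22U over 22 shared bases. The row bta-miR-29a starts 1 base earlier, with C, and is otherwise identical to hsa-miR-29a-3p. Its bases 2 to 8 read UAGCACC, so its seed is shifted by 1 base from that of the other miR-29 rows. How the authors' counting kept such close sequences apart is not stated.

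In RefSeq's gene table for the pig assembly Sscrofa 11.1, a later build than that of the deposited files, MIR26A lies inside CTDSP2. MIR29A and MIR29B-1 are each other's nearest genes, and so are MIR29B-2 and MIR29C. The annotated miR-29b has 1 mature sequence for both 29b genes, so its reads cannot be assigned to either pair. The name rule found no annotated miR-26b, and its sequence was followed in the conserved table.

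The libraries held 11396809 to 13839556 annotated miRNA reads. Of the annotated miRNAs 251 reached 10 CPM (reads per library size, the sizes adjusted by TMM) in at least 1 library, and all 4 members did. The floor of 3 reads, as far as an observed 0 can reach, equals 0.207 to 0.282 CPM. PCR-amplified reads are not independent molecules, so the true error is larger than counting error.

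miR-26a was by far the most abundant member. In ventral hippocampus it stood at 26521 CPM in the control pool and 28397 in the iron pool, and in dorsal hippocampus at 30638 and 30988. Both dorsal libraries were above both ventral ones. It took 2.78% of annotated reads in the ventral control library (exact Clopper-Pearson 95% interval 2.77% to 2.79%) and 3.12% in the dorsal control library (3.11% to 3.13%), with the iron libraries between these. It ranked 8 among all annotated miRNAs in 3 libraries and 9 in the ventral iron library.

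miR-29a led its family. Its ventral levels were 2855 CPM in control and 2951 in iron, and its dorsal levels 2734 and 3556. The dorsal iron library stood above the other 3, which lay close together. miR-29c, its nearest relative in sequence, had ventral levels of 558 CPM in control and 523 in iron, and dorsal levels of 586 and 447. Here the dorsal iron library was the lowest, the opposite of miR-29a. miR-29b had ventral levels of 432 CPM in control and 295 in iron, and dorsal levels of 326 and 272. The ventral control library stood above the rest. The order miR-26a, miR-29a, miR-29c, miR-29b was the same in all 4 libraries. CPM is not divided by length, which differs by 1 base at most between the pig-listed rows, and how well each sequence was captured in a library was not measured.

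**Figure D1:**
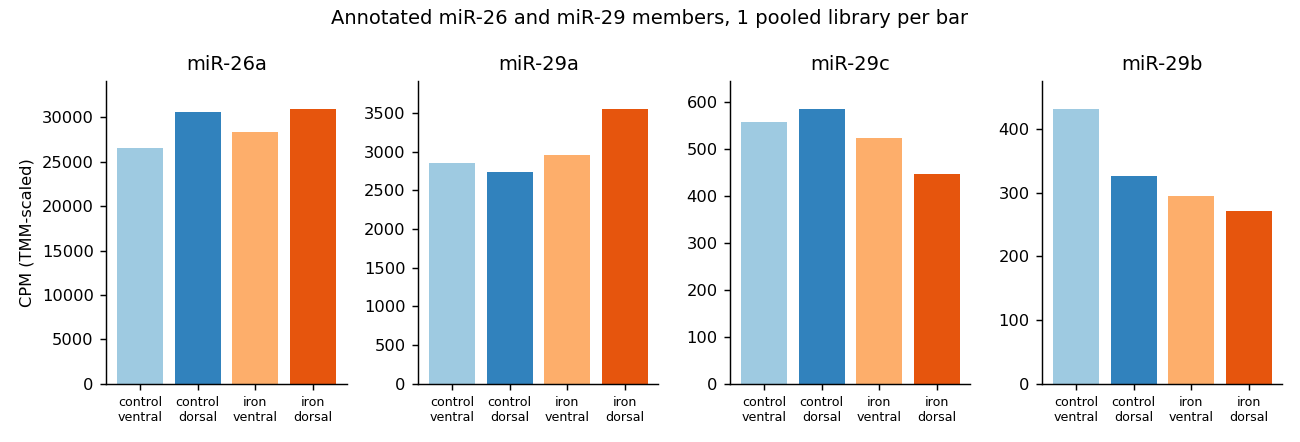
Level of each annotated member in TMM-scaled CPM (vertical axes from 0, on a scale of its own for each member) in the 4 libraries; each bar is 1 pooled library, so there are no error bars. In the dorsal iron library miR-29a is at its highest, 3556 CPM, and miR-29c and miR-29b are at their lowest, while miR-29b is highest in the ventral control library at 432 CPM.

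The make-up of the miR-29 family inside a library does not depend on scaling, and it differed between libraries. In ventral hippocampus miR-29a made up 74.2% of miR-29 reads in control (exact 95% interval 73.9% to 74.6%) and 78.3% in iron (77.9% to 78.7%). In dorsal hippocampus it made up 74.99% in control (74.6% to 75.4%) and 83.2% in iron (82.8% to 83.5%). Both iron libraries were above both control libraries. The share of miR-29b in ventral hippocampus was 11.2% in control (10.99% to 11.5%) and 7.83% in iron (7.58% to 8.07%). In dorsal hippocampus it was 8.95% in control (8.69% to 9.22%) and 6.37% in iron (6.14% to 6.59%). It was lower in both iron libraries than in both control libraries. Shares of the same total depend on each other, so this is not a separate observation from the share of miR-29a. The share of miR-29c was 14.5% and 13.9% in ventral control and iron, and 16.1% and 10.5% in dorsal control and iron, with the last of these apart from the others. For each miR-29b read there were 6.60 miR-29a reads in ventral control, 10.005 in ventral iron, 8.38 in dorsal control and 13.1 in dorsal iron. For each miR-29c read there were 5.12, 5.64, 4.67 and 7.96 miR-29a reads in the same order. At this depth counting intervals separate easily. Of the annotated miRNAs that reached 10 CPM, most had a ratio of iron to control whose interval excluded 1. Their share was 77.3% in ventral hippocampus and 77.7% in dorsal. How many other miRNAs part the iron from the control libraries was not counted. The spread between piglets was not measured, and the shares were not tested against the spread between libraries.

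**Figure D2:**
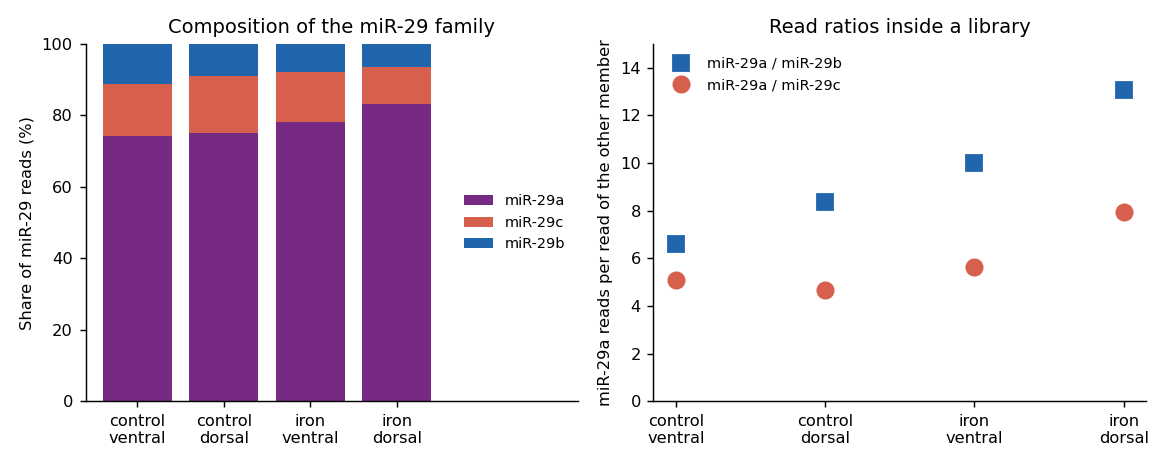
Left, share of miR-29 reads (percent, vertical axis) taken by miR-29a, miR-29c and miR-29b in each library; right, miR-29a reads per read of miR-29b (squares) or of miR-29c (circles), with 1 pooled library per position and no error bars. The share of miR-29a lies between 74.2% in ventral control and 83.2% in dorsal iron, and its ratio to miR-29b between 6.60 and 13.1 in the same libraries.

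In the ventral hippocampus, iron was set against control to see how the members stand in this region after the injections. Of the 4 members 0 were at least 2-fold different, where 1.99% of the 251 measured miRNAs were. miR-29b was the member farthest from 1, at 1.47-fold lower in the iron library (95% counting interval 1.41 to 1.53) and rank 14 from the lowest ratio of 251. The others lay close to 1. miR-26a had a ratio of 1.07 (1.07 to 1.08), miR-29a of 1.03 (1.02 to 1.05) and miR-29c of 0.938 (0.908 to 0.969). At this depth an interval excludes 1 easily, as it did for 77.3% of all measured miRNAs. The side of 1 of miR-29a depends on scaling, with ratios of 0.990 to 1.05 over the alternatives. The members' median log2 ratio was -0.02, beside 0.00 over all measured miRNAs, where the median size of a log2 ratio was 0.18. Summed miR-29 reads had a ratio of 0.980 (0.968 to 0.993).

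In the dorsal hippocampus the same comparison again had 0 of 4 members at least 2-fold different, beside 0.797% of all measured. miR-29a was 1.30-fold higher in the iron library (1.28 to 1.32), at rank 37 from the highest of 251. miR-29c was 1.31-fold lower (1.26 to 1.36), at rank 39 from the lowest, and miR-29b was 1.199-fold lower (1.14 to 1.26). The close relatives miR-29a and miR-29c thus lay on opposite sides of 1, and their sum with miR-29b, most of it miR-29a, had a ratio of 1.17 (1.16 to 1.19). miR-26a had a ratio of 1.01 (1.01 to 1.02), which lay between 0.927 and 1.02 over other scalings. The members' median log2 ratio was -0.12, beside -0.02 over all, where the median size was 0.24.

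**Figure D3:**
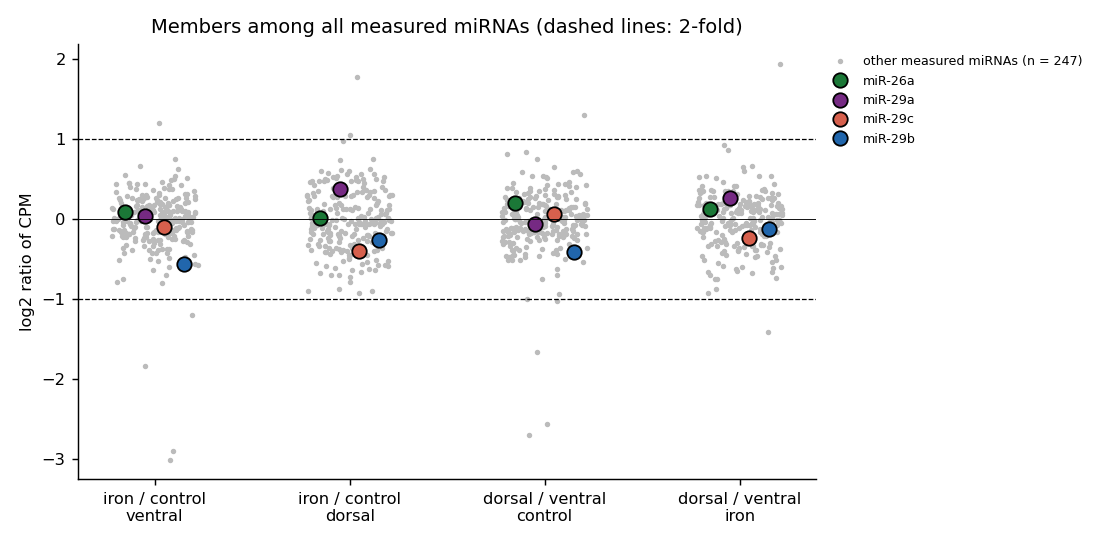
log2 ratio of CPM (vertical axis) in the 4 comparisons for miR-26a, miR-29a, miR-29c and miR-29b (large points) and the other measured miRNAs (grey points, spread sideways for view); dashed lines mark 2-fold. No member crosses the 2-fold lines, and miR-29a and miR-29c lie on opposite sides of 0 in each comparison with this scaling.

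Between regions of the control pools, 0 of 4 members were at least 2-fold different, with 1.99% of all measured beyond that size. miR-26a was 1.16-fold higher in the dorsal library (1.15 to 1.16) and miR-29b was 1.33-fold lower (1.27 to 1.38). miR-29a had a ratio of 0.958 (0.944 to 0.972) and miR-29c of 1.05 (1.02 to 1.08). This ratio of miR-29b has the same denominator library as its ventral iron ratio, the one where miR-29b was highest, so these are not separate observations.

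Between regions of the iron pools, 0 of 4 members were at least 2-fold different, with 0.797% of all measured beyond that size. miR-29a was 1.205-fold higher in the dorsal library (1.19 to 1.22), and miR-26a had a ratio of 1.09 (1.086 to 1.097). miR-29c was 1.17-fold lower (1.13 to 1.22) and miR-29b was 1.08-fold lower (1.03 to 1.14). miR-26a was above 1 in dorsal against ventral in both treatments and miR-29b below 1 in both, while miR-29a and miR-29c changed sides. The median log2 ratio of the members was 0.00 in both treatments.

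Over all 4 libraries, edgeR's quasi-likelihood test with region and treatment as terms called 0 of 251 miRNAs for iron against control (0.0%). At an unadjusted p under 0.05 there were 11, with 0 members among them. miR-29b had the largest difference of the members, -0.41 on the log2 scale and below 0 in 2 of 2 regions, with an adjusted p of 0.929 in edgeR. miR-29c had -0.24, below 0 in 2 of 2 regions, and miR-29a had 0.21, above 0 in 2 of 2, both also with an edgeR adjusted p of 0.929. For miR-29a this count does not hold with total annotated reads, where its ventral ratio was 0.990. That ratio was 1.05 with DESeq2 size factors, 1.03 with the authors' RPM and 1.02 with unmerged rows. miR-26a had 0.06, with an edgeR adjusted p of 0.992. limma-trend and DESeq2's Wald test called 0 members too, with smallest adjusted p-values of 0.916 and 0.876. Between dorsal and ventral, edgeR called 0 of 251 (0.0%), and 8 had an unadjusted p under 0.05, with 0 members among them. The log2 differences were 0.17 for miR-26a, 0.10 for miR-29a, -0.08 for miR-29c and -0.26 for miR-29b, each with an edgeR adjusted p of 0.996. DESeq2 and limma-trend called 0 members here as well. The fit has 1 residual degree of freedom and both regions come from the same piglets, so these p-values describe the spread between libraries only.

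The conserved table gave a second count of the same libraries, split over sequences of many species, and separates paralogs and hairpin arms that the annotation does not. The mir-26 family summed to 27688 CPM in ventral control, 29763 in ventral iron, 31655 in dorsal control and 32009 in dorsal iron, on a scale set within that table. The mir-29 family summed to 3208, 3139, 3054 and 3355 CPM in the same order. Rows were then grouped by a shared core sequence. The guide arm of miR-26b, which has the seed of miR-26a, held 3 rows with 28593 reads in ventral control, 24061 in ventral iron, 27467 in dorsal control and 20359 in dorsal iron, or 2003, 2005, 2252 and 1948 CPM. The dorsal iron library was 1.16-fold lower than dorsal control in miR-26b (1.14 to 1.18), while the ventral libraries had a ratio of 1.001 (0.984 to 1.02).

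Of the reads of both miR-26 guides in ventral hippocampus, miR-26b took 7.35% in control (exact 95% interval 7.26% to 7.43%) and 6.83% in iron (6.75% to 6.92%). In dorsal hippocampus it took 7.22% in control (7.14% to 7.30%) and 6.17% in iron (6.09% to 6.26%). The share was lower in both iron libraries than in both control libraries, and its order over the 4 libraries was that of the share of miR-29b within miR-29. How many other shares have this order was not counted. Whether annotated miR-26a reads include those of miR-26b cannot be told from the tables. The mir-26 family sum was 101.4% to 102.8% of the annotated miR-26a reads.

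For miR-29 the conserved table showed the same order as the annotated one, which is no separate support since the libraries are the same. Ventral levels of miR-29a-3p were 2152 CPM in control and 2269 in iron, and dorsal levels 2109 and 2559. Those of miR-29c-3p were 474 and 445 in ventral control and iron, and 496 and 372 in dorsal. Those of miR-29b-3p were 408 and 278 in ventral control and iron, and 305 and 255 in dorsal. The dorsal iron library was again highest for miR-29a and lowest for the others. The mir-29 family sum was 77.0% to 82.8% of annotated miR-29 reads, lowest in dorsal iron, and where the other reads were placed was not tested.

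The opposite arms of the hairpins, which are usually degraded once the guide arm is loaded, were scarce except for miR-29c-5p. It is shown because its libraries stood in another order than those of its guide arm.
mmu-miR-29c-5p: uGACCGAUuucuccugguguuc
Its 5 rows stood at 136 CPM in ventral control, 109 in ventral iron, 108 in dorsal control and 129.4 in dorsal iron, with the middle pair lowest. Dorsal iron had a ratio to dorsal control of 1.195 in the 5p arm (1.11 to 1.29), where the 3p arm was 1.335-fold lower (1.28 to 1.39). There were 3.50 reads of the 3p arm for each of the 5p arm in ventral control, 4.09 in ventral iron, 4.58 in dorsal control and 2.87 in dorsal iron. Reads of rno-miR-3556b, a row antisense to a miR-29c-3p row, were not added to the 3p arm. That row held 605, 476, 477 and 432 reads in the same order, and its part in these ratios was not tested.

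The 5p arms also separate the 29b hairpins, and are printed to show how.
mmu-miR-29b-2-5p: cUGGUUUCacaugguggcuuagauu
mmu-miR-29b-1-5p: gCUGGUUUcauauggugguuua
The 29b-1 row starts 1 base earlier, and over 21 shared bases it differs by C10U and C18U, counted from the start of the 29b-2 row and with its base first. miR-29b-2-5p had 470 reads in ventral control, 382 in ventral iron, 379 in dorsal control and 383 in dorsal iron, and miR-29b-1-5p had 3, 2, 0 and 5. In CPM miR-29b-2-5p stood at 32.9, 31.8, 31.1 and 36.6 in that order, without the high value that miR-29b-3p had in ventral control. How much of an arm survives was not measured, so these reads do not give the output of each 29b gene. Over all libraries miR-26b-3p had 475 reads, miR-26a-2-3p had 232 and miR-29a-5p had 157. miR-29a-5p, below 10 CPM throughout, had 22 reads in dorsal iron against 53 in ventral iron, or 2.10-fold lower (1.25 to 3.62). The rows outside these classes held 20725 reads in mir-26, of which 18835 fell to tch-miR-26a-2-5p, and 65 reads in mir-29.
tch-miR-26a-2-5p: uUCAAGUAacccaggauaggcu
It is printed because it differs from hsa-miR-26a-5p by the single change U10C, outside the seed, and drew many fewer reads.

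**Figure D4:**
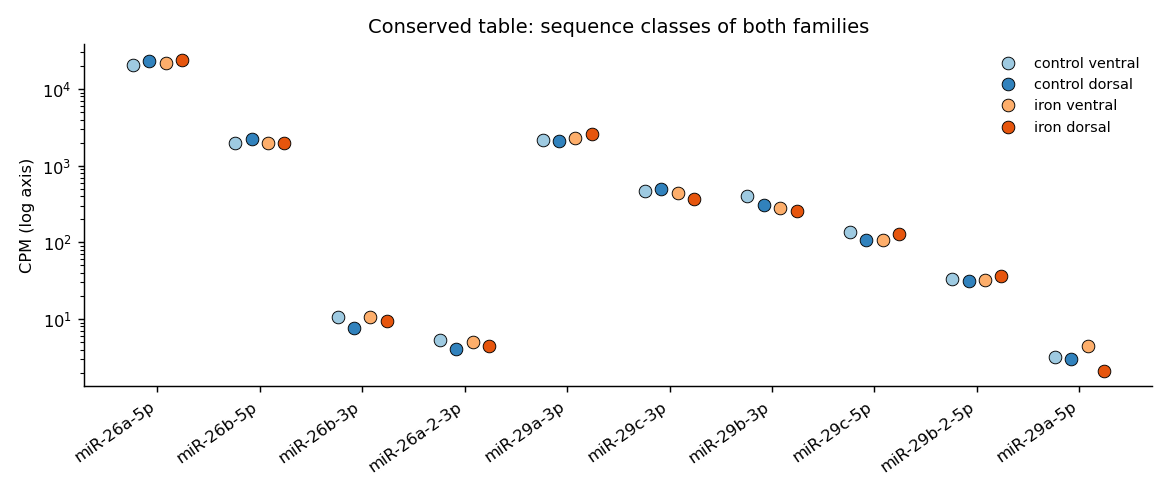
CPM on a log axis for the sequence classes of the conserved table with at least 100 reads in all (horizontal axis), with 1 point per pooled library; the row that is antisense to miR-26a and the unclassed rows are left out. The guide arms lie above the opposite arms, and miR-29c-5p is the most abundant opposite arm at 108 to 136 CPM.

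Rows of different length within a guide did not keep the same balance over the libraries. The leading row of mir-26 was the 21-base gga-miR-26a-5p, with 94633 reads in ventral control, 78459 in ventral iron, 72084 in dorsal control and 88364 in dorsal iron. The 22-base hsa-miR-26a-5p, with 1 more base at the 3′ end, had 67833, 63859, 71619 and 56111 reads in that order. The ratio of the shorter to the longer row was 1.40, 1.23, 1.01 and 1.57, highest in dorsal iron and lowest in dorsal control. For miR-26b the ratio of the 21-base to the 22-base row was 0.504, 0.480, 0.388 and 0.581, in the same order of libraries. For miR-29b the ratio of the 22-base to the 23-base row was 0.601, 0.565, 0.571 and 0.787. For miR-29a the ratio of the 21-base oar-miR-29a to the 22-base hsa-miR-29a-3p stayed between 0.679 and 0.697. The leading rows of mir-29 were all of miR-29a: the 24-base efu-miR-29a with 7551 reads in ventral control, the 23-base bta-miR-29a with 7305 and hsa-miR-29a-3p with 6490. A 25-base row of miR-26a, efu-miR-26c, still had 61801 reads there, so a row's length is not the length of its reads, and rows that overlap share reads. The ratios are therefore a blurred measure of the 3′ end.

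Rows of other families differed in balance as well. Among 405 pairs of rows in other families, the ratio of the shorter row was higher in dorsal iron than in dorsal control for 68.9%, with a median log2 change of 0.10. Among the 12 pairs of mir-26 and mir-29 it was higher for 11, with a median of 0.22. Between dorsal and ventral iron it was higher in dorsal for 70.4% of other pairs and for 11 of 12 here, and between dorsal and ventral control for 34.6% and for 2 of 12. For ventral iron against control the medians were -0.01 in both sets. Pairs share rows and reads, so their number is not a number of independent observations. Some of the higher ratios were barely so, such as bta-miR-29a to efu-miR-29a at 0.967 in dorsal control and 0.968 in dorsal iron. For miR-29c the ratio of the 21-base to the 22-base row was 0.661 in dorsal control and 0.687 in dorsal iron. It was higher in ventral control, at 0.693. The 20-base to 21-base ratio of miR-29c was 0.357 in dorsal control and 0.507 in dorsal iron. The balance of lengths thus differed in dorsal iron for some rows and hardly for those of miR-29a. Its part in the ratios of the members was not tested.

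**Figure D5:**
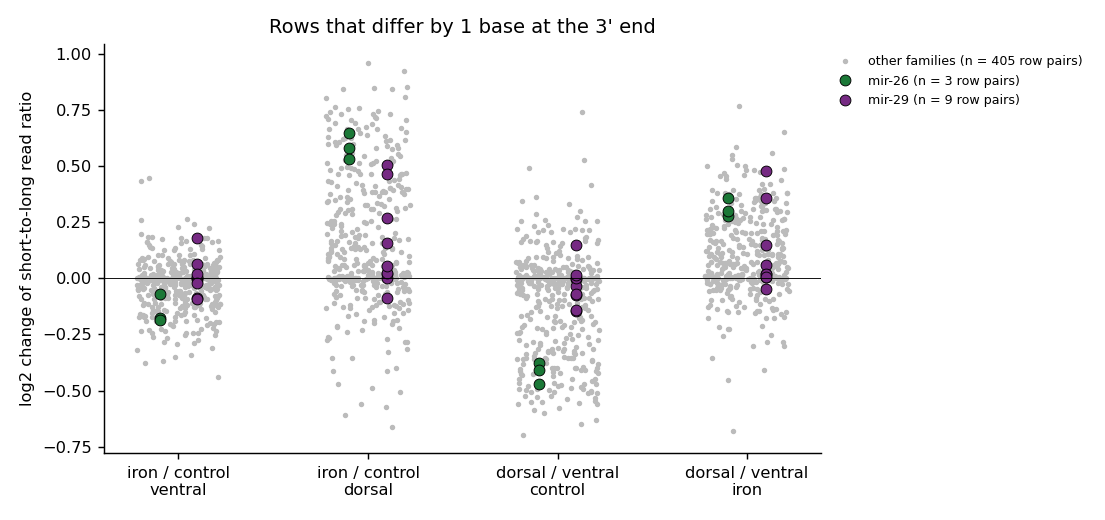
log2 change, between the libraries named under each column, of the read ratio of a row to the row that is 1 base longer at the 3′ end (vertical axis), for row pairs of mir-26 (green), mir-29 (purple) and other families (grey) with at least 100 reads in each row and library. In both columns with dorsal iron as numerator most points lie above 0, among them 11 of the 12 pairs of mir-26 and mir-29.

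Most rows of the conserved table that are reverse complements of each other held the same reads. Of 38 such pairs 27 were identical in all libraries, and of the 30 pairs with at least 100 reads in each library 30 agreed within 1%. The third most abundant row of mir-26 is shown because it is the exact reverse complement of hsa-miR-26a-5p.
bta-miR-26c: aGCCUAUCcuggauuacuugaa
Both had 67833 reads in ventral control, and they were equal in the other libraries too. Outside the families, rno-miR-3556b had the same 605 reads in ventral control as gga-miR-29c-3p, the 20-base miR-29c row to which it is antisense. Rows outside the families were also searched for a 15-base stretch antisense to a member. That search found rno-miR-3556a too, with 922 reads in ventral control and 779.5 in dorsal iron, and rno-miR-3587, with 30.5 in ventral control. Reads of bta-miR-26c were counted with miR-26a in the shares of miR-26b, and whether the table counted any antisense RNA cannot be told.

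Levels of miRNAs known from single cell types are given because whole tissue can differ in make-up. miR-23a and miR-23b, other astrocyte-enriched miRNAs, summed to 2433 CPM in ventral control, 2942 in ventral iron, 2551 in dorsal control and 3298 in dorsal iron. Both were above 1 in all 4 comparisons, and like miR-29a they were highest in dorsal iron. The comparisons share libraries, and miRNAs outside this list, such as miR-99a and the vascular miR-126-3p, were also above 1 in all 4. How many measured miRNAs were so was not counted. For the oligodendrocyte list 2 of 3 annotated miRNAs were measured, miR-219b-3p and miR-338, which summed to 10264, 13906, 11503 and 8812 CPM in that order of libraries. For the neuron-enriched list 9 of 10 were measured, which summed to 66541, 70188, 72881 and 59226 CPM, and for iron against control in dorsal hippocampus 8 of 9 were below 1. Both sums were lowest in dorsal iron, as were miR-29c and miR-29b. In the neuron-enriched list miR-129b and miR-129a-5p held nearly the same reads, with 1195 and 1194 CPM in dorsal iron. They are therefore not separate observations in the count or the sum. The median log2 ratio over all measured miRNAs was -0.02 for iron in dorsal hippocampus. Over the libraries the 6 measured immune and microglial miRNAs of 7 summed to 1489 to 1947 CPM, the 6 vascular ones to 16024 to 21937, and the 3 erythroid ones to 837 to 1075. For iron against control in ventral hippocampus the immune sum had a ratio of 1.23 while 4 of the 6 were below 1, with a median log2 ratio of -0.27. That sum moved with miR-146b, named after its values were seen, at 380 CPM in ventral control, 875 in ventral iron, 937 in dorsal control and 1019 in dorsal iron. The choroid plexus marker miR-204 stood at 253 CPM in ventral control, 178 in ventral iron, 199 in dorsal control and 164 in dorsal iron. It too was lowest in dorsal iron, and its order over the libraries was that of miR-29b. No measured marker was at 0 in any library. The part of cell make-up in the ratios of miR-26 and miR-29 was not tested.

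Among 158 other miRNAs with at least 100 CPM in every library, those with the pattern most like miR-26a were miR-126-3p, known from endothelial cells, let-7e and let-7d-5p. Their root mean square distances from it, on log2 CPM centred over 4 libraries, were 0.021, 0.032 and 0.036, where the median miRNA was at 0.17. Nearest to the summed miR-29 members were miR-370 at 0.022, miR-676-3p at 0.035 and miR-30c-3p at 0.040, with a median of 0.16. These are likenesses over 4 points, and the miR-29 sum mainly follows miR-29a.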

How the data were processed

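The authors deposited estimated counts of reads per library, per the file headers, for annotated and for conserved miRNAs, many of them fractions, and they were rounded here. The annotated table also holds RPM deposited by the authors, used as an alternative scaling. The submitters' processing notes name cutadapt 1.2.2 and the builds Sscrofa 10.2 and susScr 3; aligner, quantifier, strand setting and division of reads remain not given in the sources used here. Predicted miRNAs were left out, and 12 columns of per-sample values were not used.

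Annotated rows that name identical precursors and differ by at most 0.1% in reads were merged (326 to 321). TMM factors (edgeR 4.0.16) set CPM, with a minimum of 10 CPM in 1 library. Ratios carry exact conditional binomial 95% intervals, and those of at least 2-fold whose interval excludes 1 were counted. An additive model over the 4 libraries was fitted with edgeR's quasi-likelihood method, adjusted by Benjamini-Hochberg over all measured miRNAs with a threshold of 0.05, and tested on simulated data. Alternatives were DESeq2 1.42.0, limma 3.58.1, other scalings, filters and unmerged rows. The conserved table was TMM-scaled on its own, so levels are compared within a table. The text names every annotated member, family sums, the 3 leading conserved rows per family and the 3 nearest patterns; sequence classes, arms, row lengths, strands and any other row were chosen after their values were seen. Members and lists were chosen with earlier results of these data known.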

Additional observations from a re-analysis of the deposited data

Results flagged for a closer look

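The region ratio of miR-29a lay on opposite sides of 1 in the treatments. Dorsal against ventral was 0.958 in the control pools (0.944 to 0.972) and 1.205 in the iron pools (1.19 to 1.22), a log2 difference of 0.33. miR-29c did the reverse, with 1.05 in the control pools (1.02 to 1.08) and 0.853 in the iron pools (0.822 to 0.886), a log2 difference of -0.30. Other measured miRNAs changed sides between the treatments too, so a change of side is not particular to the members. Among them were miR-7, with log2 ratios of -0.45 in the control pools and 0.87 in the iron pools, and miR-181a, with 0.27 and -0.28. Another was miR-128, with 0.59 and -0.20, and the share of all measured miRNAs that changed sides was not counted. The median size of a log2 ratio over all measured miRNAs was 0.19 between the control pools and 0.20 between the iron pools. Both log2 differences also equal, by construction, those between the dorsal and ventral ratios of iron to control given above. They are therefore not separate observations from those ratios. Each ratio rests on 1 pool per group, and the difference between treatments was not tested.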

How the results depend on the processing

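The count of members at least 2-fold different was 0 in all 4 comparisons under total read scaling, DESeq2 size factors, the authors' RPM, unmerged rows, no minimum and a minimum of 100 CPM. The count of members called over all libraries was 0 with DESeq2 and limma-trend, and with edgeR under total read scaling, DESeq2 size factors, no minimum and unmerged rows. Calls over all miRNAs did move: edgeR called 0 for iron with TMM and 2 with total reads, DESeq2 size factors or unmerged rows, and 3 without a minimum, and DESeq2 called 1. Between regions edgeR called 0 with TMM, 3 with each of those scalings and with unmerged rows, and 4 without a minimum. With a minimum of 100 CPM edgeR called 0 of 182 both for iron and between regions. With total reads miR-29b had an unadjusted p of 0.040 for iron (adjusted p = 0.768, edgeR), and the log2 difference of miR-26a was -0.04.

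Of 20 ratios of members and of the miR-29 sum, 2 changed their side of 1 with scaling: miR-26a for iron in dorsal hippocampus (0.927 to 1.02) and miR-29a for iron in ventral hippocampus (0.990 to 1.05). Scaling or unmerged rows moved no ratio by more than 1.09-fold. Total reads shifted log2 ratios of all miRNAs by -0.13 for iron in dorsal hippocampus. With conserved family sums the miR-29 ratio for iron in dorsal hippocampus was 1.099 in place of 1.17. No library could be left out, since each group has 1. No paired analysis was possible because the groups share a single replicate number, so no such block can be fitted; the additive fit itself compares iron with control within each region and the regions within each treatment's pools. Depth limits the scarce arms below 10 CPM, not the annotated members.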
